A study of Mus musculus with 9 samples.

Results

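Aoc1 and Scnn1b are a pair of genes known from the absorptive epithelium of the colon, and 1 microarray probe for each was followed over 9 samples of mouse colon, divided among Control, DSS and DSS+PAMK groups. They are 2 of the 176 genes that the published lists of the study pair with probes of the array. Both were chosen by measured values of these same arrays. Aoc1 was listed for being higher with DSS+PAMK than with DSS alone, and Scnn1b for being higher with DSS than in Control mice and lower again with DSS+PAMK. The thresholds of those lists were a fold change of 2 and an unadjusted p of 0.05. The levels of both genes are therefore given as a description, with no test.

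All mice were male C57BL/6J mice of 10 weeks, and each group held 3 samples, with 1 array each. The Control mice drank distilled water. In the DSS and DSS+PAMK groups the water contained 3% dextran sodium sulfate (DSS), a sulfated polysaccharide that injures the colonic epithelium and causes acute colitis, for 7 days. From day 8 to day 14, normal saline was given by gavage to the Control and DSS groups, and 200 mg/kg PAMK, a polysaccharide from the rhizome of the medicinal plant Atractylodes macrocephala, to the DSS+PAMK group. As a model, the DSS group thus stands for acute colitis followed by days of gavage with saline. The sources used here do not say whether each sample was 1 mouse, so the p-values given for other genes measure the spread between these samples.

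Aoc1 encodes amine oxidase copper containing 1, also called diamine oxidase, a secreted enzyme of epithelial cells that breaks down histamine and the polyamine precursor putrescine. In the gut it is known as a barrier to amines from food and bacteria. Scnn1b encodes the beta subunit of the epithelial sodium channel ENaC, which lets sodium enter surface cells of the distal colon and which is controlled by aldosterone.

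The array carried 1 spot for each gene, and each spot holds a probe of 60 bases. The probe sequences are shown because every level below rests on them. No other probe could be linked to either gene, and where in its transcript each probe lies was not determined. The probe of Aoc1 is given in full and that of Scnn1b by its first 30 bases, 5′ to 3′.
Aoc1 (mclstr_27740_1538_6): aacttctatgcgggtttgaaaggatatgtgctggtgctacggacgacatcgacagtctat
Scnn1b (mclstr_32376_2171_8): actgaagagttacaaccattgtcagtgcct
Both probes contain 46.7% G and C. The longest run of bases that the Aoc1 probe shared with any other probe of the array was 13 on the same strand and 14 on the opposite strand, and for the Scnn1b probe it was 15 on either strand. Neither probe therefore has a close copy among the 166924 probes.

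Both spots were well measured. Aoc1 and Scnn1b were well above background on 9 of 9 arrays, with 0 saturated and 0 outlier spots. The mean signal was 48.9 to 183 times the local background for Aoc1 and 12.7 to 43.6 times for Scnn1b. The error that the scanner software assigned to each spot was 10.0% of its intensity on every array.

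Before normalization, the processed intensity of Aoc1 was 1021, 4006 and 1643 on the Control arrays, 1694, 1909 and 1730 on the DSS arrays, and 4456, 3441 and 3539 on the DSS+PAMK arrays. After quantile normalization over the 9 arrays, the log2 level of Aoc1 was 10.40, 12.12 and 10.74 in Control, 10.89, 10.69 and 10.53 in DSS and 12.02, 11.71 and 11.63 in DSS+PAMK mice. The 3 DSS+PAMK arrays lay high and close together, the 3 DSS arrays lay low and close together, and the Control group held both a high array, replicate 2, and a pair of low ones. After normalization Control replicate 2 was the highest of all 9 arrays, while before it DSS+PAMK replicate 1 was. Control replicate 1 was the lowest both before and after, so the Control group overlapped both other groups.

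The mean log2 level of Aoc1 was 11.79 ± 0.21 (SD, n = 3) in the DSS+PAMK group, 11.09 ± 0.91 (SD, n = 3) in Control mice and 10.70 ± 0.18 (SD, n = 3) in DSS mice. Aoc1 was 1.08 log2 units, or 2.12-fold, higher with DSS+PAMK than with DSS alone, and the arrays of these groups did not overlap. This is the comparison that chose Aoc1, and its fold change lies just past the threshold of 2, which it missed without DSS+PAMK replicate 1 (0.97) or DSS replicate 3 (0.998). Among all 99612 tested probes, 16% did not overlap between the DSS+PAMK and DSS groups and 1.7% were called, that is, passed both thresholds, so nothing is read from this count. In bulk colon, fewer cells of a type and less RNA per cell cannot be told apart.

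The place of the Control group in this order was not settled by these arrays. The DSS group was lower than the Control group by a mean log2 difference of −0.38, which is smaller than the SD of the Control group. Without Control replicate 2 this difference was 0.13, of the opposite sign, and without Control replicate 1 it was −0.73. The DSS+PAMK group was 0.70 log2 units, or 1.62-fold, above the Control group, with overlap, and this difference was 1.22 without Control replicate 2 and 0.36 without Control replicate 1.

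**Figure D1:**
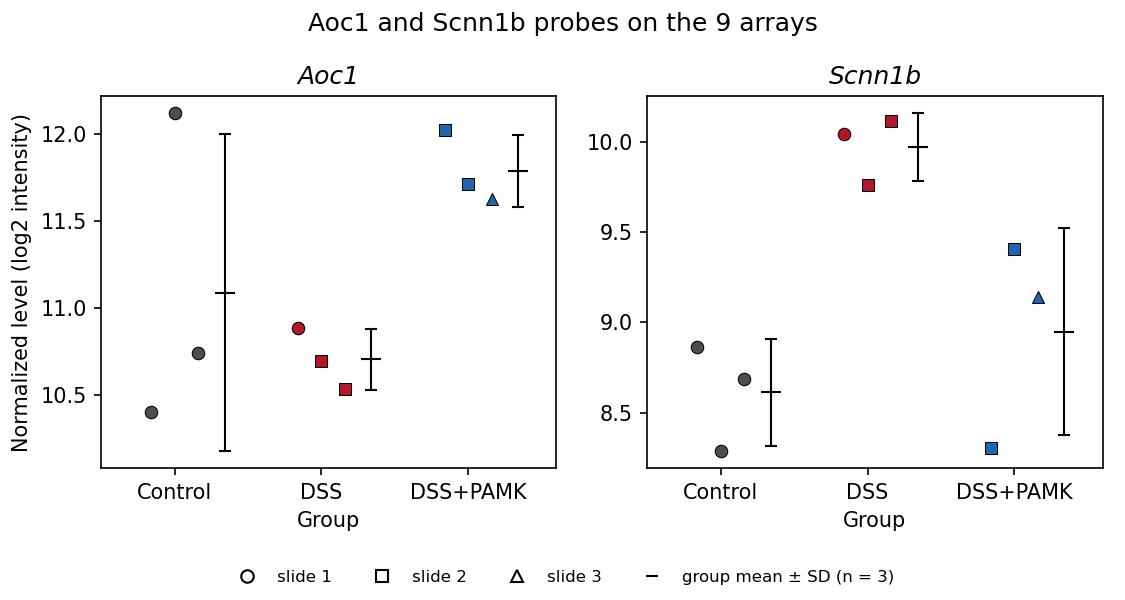
Normalized log2 intensity of the Aoc1 and Scnn1b probes on each array, by group, with the marker shape giving the slide and the bars the group mean ± SD (n = 3). Aoc1 was high on the DSS+PAMK arrays and on Control replicate 2 (12.12), while Scnn1b was high on the 3 DSS arrays (9.76 to 10.12).

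Scnn1b showed another order. Its processed intensity was 360, 317 and 399 on the Control arrays, 930, 996 and 1295 on the DSS arrays, and 335, 667 and 660 on the DSS+PAMK arrays. The normalized log2 level was 8.86, 8.29 and 8.69 in Control, 10.04, 9.76 and 10.12 in DSS and 8.30, 9.41 and 9.14 in DSS+PAMK mice. For DSS+PAMK replicate 2 the published list prints a much lower normalized value of this probe than the deposited array files give, and the levels here come from those files. All DSS arrays were above all others. DSS+PAMK replicate 1 lay at the level of the lowest Control array, and the other two DSS+PAMK arrays lay between the Control and DSS arrays.

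The mean log2 level of Scnn1b was 9.97 ± 0.19 (SD, n = 3) in the DSS group, 8.95 ± 0.58 (SD, n = 3) in the DSS+PAMK group and 8.61 ± 0.30 (SD, n = 3) in the Control group. The channel subunit was 1.36 log2 units, or 2.57-fold, higher with DSS than in Control mice, without overlap. Across all tested probes, 18.7% did not overlap between the DSS and Control groups and 3.06% were called. The DSS+PAMK group differed from the DSS group by −1.02 log2 units, or 2.03-fold, again without overlap and just past the threshold. It fell short of the threshold without DSS+PAMK replicate 1 (−0.70), DSS replicate 1 (−0.99) or DSS replicate 3 (−0.95) and with normexp, another background correction (−0.96). Both differences had chosen Scnn1b.

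The Scnn1b arrays of the DSS+PAMK and Control groups overlapped, with a mean log2 difference of 0.34, below the SD of the DSS+PAMK group. Neither gene was free of overlap in this comparison, in which 24.5% of the tested probes did not overlap and 2.67% were called. The value rested on single arrays, being 0.66 without DSS+PAMK replicate 1 and 0.11 without DSS+PAMK replicate 2.

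The arrays were on 3 slides. Slide 1 held the Control arrays and DSS replicate 1, slide 2 held DSS replicates 2 and 3 with DSS+PAMK replicates 1 and 2, and slide 3 held DSS+PAMK replicate 3. Within slide 1, Scnn1b was 1.43 log2 units higher on the DSS array than on the mean of the 3 Control arrays, while Aoc1 differed by −0.20. Within slide 2, the 2 DSS+PAMK arrays were 1.25 log2 units above the 2 DSS arrays for Aoc1 and differed from them by −1.08 for Scnn1b. With slide as a fixed block the differences were the same as within these slides, and DSS+PAMK minus Control was 1.05 for Aoc1. No slide held both of the latter groups.

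**Figure D2:**
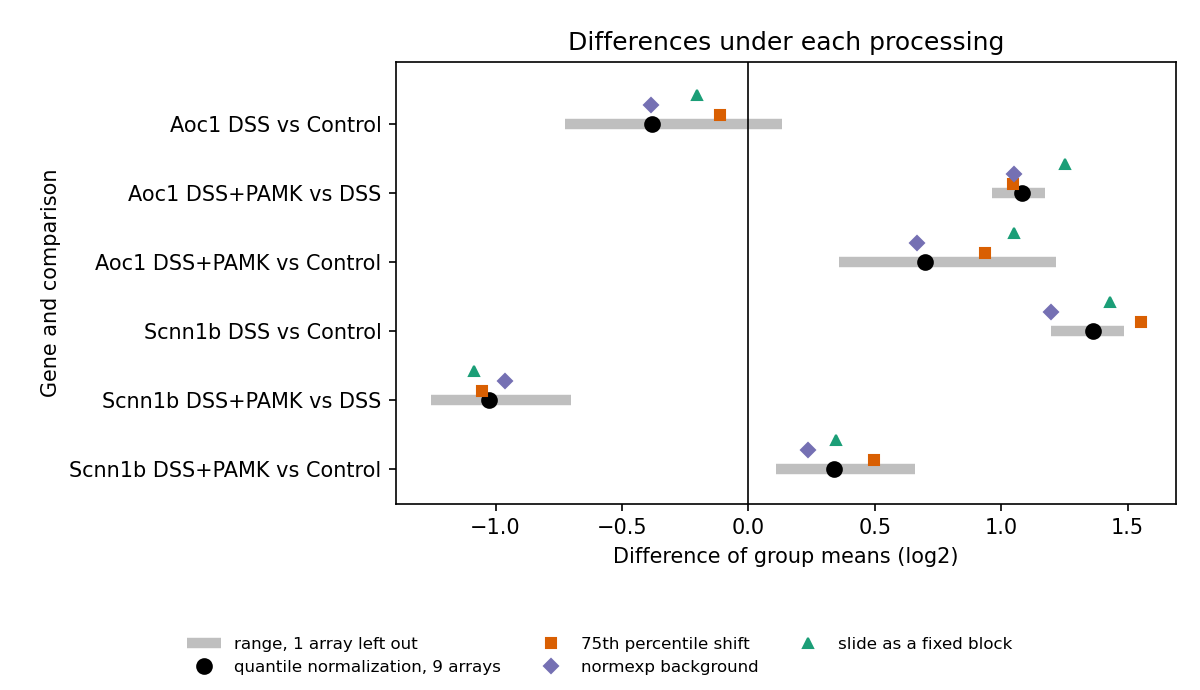
Difference of group means on the log2 scale (horizontal axis) for each gene and comparison, as measured on 9 arrays (black), under other processing (colored) and as the range when 1 array is left out (grey bar). Only the bar of Aoc1 between the DSS and Control groups crosses 0, from −0.73 to 0.13.

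The spread within groups was unusual in 1 group for each gene. The SD of Aoc1 in the Control group was larger than that of 96.6% of the tested probes, where the median SD was 0.27. In the DSS and DSS+PAMK groups it was larger than that of 29.6% and 50.6% of them. For Scnn1b the wide group was DSS+PAMK, with an SD larger than that of 92.8% of the probes, against 53.8% for Control and 32.0% for DSS. On Control replicate 2, Aoc1 was 1.55 log2 units above the mean of the other two Control arrays, while the 15 measured spots around it had a median of 0.08. On Control replicate 1 it deviated by −1.03, and the spots around it had a median of the same sign, −0.32. On DSS+PAMK replicate 1, Scnn1b deviated by −0.97, while the 14 spots around it had a median of −0.09. Control replicate 2 was at least 1 log2 unit above both other Control arrays for 1526 of 99607 tested probes (1.53%), and as far below both for 1194 (1.20%).

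The genes whose levels were most like those of Aoc1 over the 9 arrays, among 137 probes of the published lists that were well above background everywhere, were Pde7a (Pearson r = 0.961), Slc5a6 (0.953), Rapgefl1 (0.953), Itih5 (0.949) and Gm44673 (0.943). Pde7a is a cyclic AMP phosphodiesterase, Slc5a6 a sodium-dependent vitamin transporter, Rapgefl1 a relative of exchange factors for Rap GTPases and Itih5 a heavy chain of the inter-alpha-trypsin inhibitor family, while Gm44673 is a predicted gene. These correlations describe 9 arrays that share groups, slides and one normalization. Of all 76395 other probes, 104 (0.136%) were at least as like Aoc1 as the last of these genes. The log2 level of Pde7a was 6.83, 8.63 and 7.43 in Control, 7.23, 7.14 and 6.74 in DSS and 8.04, 8.07 and 7.99 in DSS+PAMK mice. These 5 genes were chosen for this likeness, from lists of probes called on these arrays, so a high Control replicate 2 shared with Aoc1 is part of the choice. After the group means were taken out, a measure added once the levels had been seen, r with Aoc1 was 0.886 to 0.961. This measure rests mostly on the Control arrays, as does every such r with Aoc1 below. The SD of Aoc1 was 0.91 in Control, against 0.18 in DSS and 0.21 in DSS+PAMK mice. Without Control replicate 2 and DSS+PAMK replicate 1, the arrays farthest from the median of Aoc1, r was 0.904 to 0.967, and Spearman's rho over all arrays was 0.767 to 0.950. With the arrays shifted to their 75th percentile, Gm44673 had an r of 0.60.

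The candidates were again the probes of the published lists, and all 5 genes below were called higher with DSS and lower again with DSS+PAMK, as Scnn1b was, so high correlations with it are expected from the choice. The genes most like Scnn1b were Ido1 (Pearson r = 0.976), Depp1 (0.954), Olfr1509 (0.937), Ifi47 (0.936) and Duox2 (0.924). Ido1 starts the breakdown of tryptophan to kynurenine, Ifi47 is a GTPase induced by interferon, Duox2 makes hydrogen peroxide at epithelial surfaces and Olfr1509 belongs to the olfactory receptors. At least as like Scnn1b as the last of them were 43 of the 76395 probes (0.0563%). Ido1 moved over a wider range than Scnn1b, at 9.05, 7.38 and 7.94 in Control, 12.19, 10.95 and 11.75 in DSS and 8.18, 9.89 and 9.66 in DSS+PAMK mice. After the group means were taken out, r with Scnn1b was 0.655 to 0.909. Without DSS replicates 1 and 3, the arrays farthest from its median, r was 0.88 to 0.959, and rho over all arrays was 0.883 to 0.967. Aoc1 and Scnn1b themselves had an r of −0.57 over the 9 arrays (rho −0.55), and −0.59 after the group means were taken out.

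**Figure D3:**
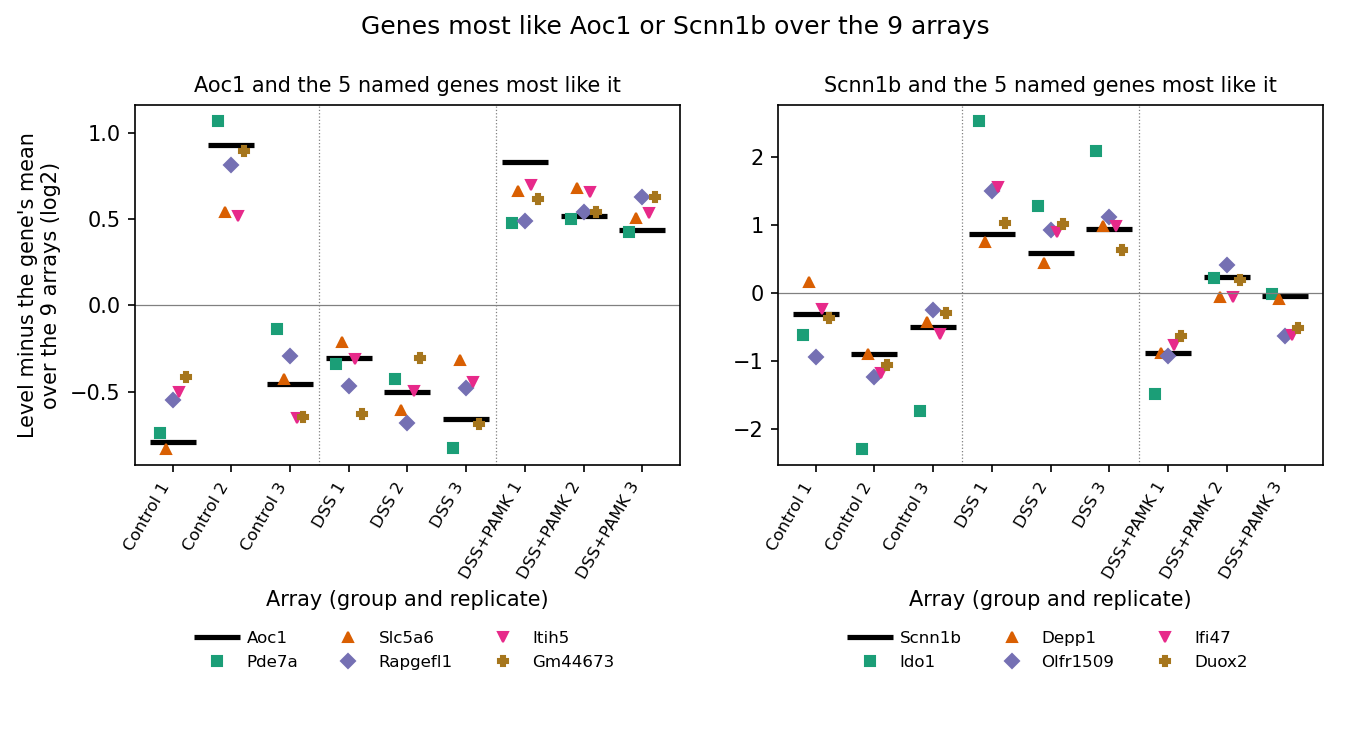
Level of Aoc1 (left) and Scnn1b (right) as black bars, and of the 5 named genes most like each as colored markers, on each array, as the log2 difference from that gene's own mean over the 9 arrays. Control replicate 2 stands high among the Control arrays on the left, and DSS+PAMK replicate 1 stands low among its group on the right, in genes chosen for their likeness over these arrays.

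The wider pathways of both genes could be followed only in small part, because few of their genes could be linked to a probe. Of 20 genes of the ENaC list, which holds the channel subunits and their regulators, only Scnn1b itself was linked, so the alpha and gamma subunits and the proteases that activate the channel are not analysed here. Of 21 genes of amine oxidases and of polyamine or histamine metabolism, Aoc1 is the gene described here, and the other amine oxidases are not analysed here.

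The median log2 difference over all tested probes was −0.04 between the DSS and Control groups and 0.02 between the DSS+PAMK and DSS groups. Over all probes, 1969 rose and 1076 fell between the DSS and Control groups (1952 and 2193 without DSS replicate 2), with 175 past the adjustment. The number past the adjustment was 0 without any 1 of the Control arrays or without DSS replicate 2, 2 and 234 without DSS replicates 1 and 3, and 7, 90 and 1 without DSS+PAMK replicates 1, 2 and 3. It was also 0 in the methods' t-test, which called 1907 probes at the thresholds, and 1226 with normexp background correction. Between the DSS+PAMK and DSS groups 641 rose and 1057 fell (946 and 844 without DSS replicate 1), and in DSS+PAMK against Control 1648 rose and 1015 fell. In these last comparisons limma gave 0 probes past the adjustment, while 7192 and 13874 had an unadjusted p of at most 0.05, and the methods' t-test also gave 0 past the adjustment. For DSS+PAMK against Control the number was 138 with normexp and 6 without Control replicate 2. When arrays were shifted to their 75th percentile, the split between the DSS and Control groups was 1353 higher and 3085 lower with a median of −0.11 over all probes, and that of DSS+PAMK against Control was 837 higher and 4195 lower with a median of −0.10. Under that shift Aoc1 differed by −0.11 between the DSS and Control groups and Scnn1b by 1.55.

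Only 1 marker of colonocytes could be set beside Aoc1 and Scnn1b. It was named from the same published lists of changed probes, so likeness to Aoc1 is in part expected from the choice. It therefore cannot check the label of colonocyte genes. Of 18 markers of absorptive colonocytes, Slc26a3 was linked, an exchanger of chloride and bicarbonate at the surface of colonocytes, which was also the 1 linked gene of 21 in other colonic ion and water transport. Its log2 level was 12.84, 13.36 and 12.83 in Control, 12.85, 12.46 and 12.43 in DSS and 13.68, 13.71 and 13.69 in DSS+PAMK mice. As for Aoc1, all DSS+PAMK arrays were high and Control replicate 2 was the highest Control array. Slc26a3 rose between the DSS and DSS+PAMK groups, by 1.12 (SE 0.19, limma adjusted p = 0.660, called at the thresholds), and differed by −0.43 (SE 0.19, limma adjusted p = 0.385, not called) between the DSS and Control groups. The latter value was −0.26 without Control replicate 2, −0.16 with slide as a fixed block and −0.15 under the 75th percentile shift. Against Control, the DSS+PAMK group was 0.69 higher, which was not called, and 1.09 higher with slide as a fixed block, which was. Over the 9 arrays its r was 0.874 with Aoc1 (rho 0.75) and −0.56 with Scnn1b (rho −0.38). After the group means were taken out it was 0.839 with Aoc1, resting mostly on the Control arrays, and −0.26 with Scnn1b. The part that the share of colonocytes in each sample had in either gene was not tested, and 0 of 14 general epithelial markers and 0 of 10 crypt markers were linked.

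**Figure D4:**
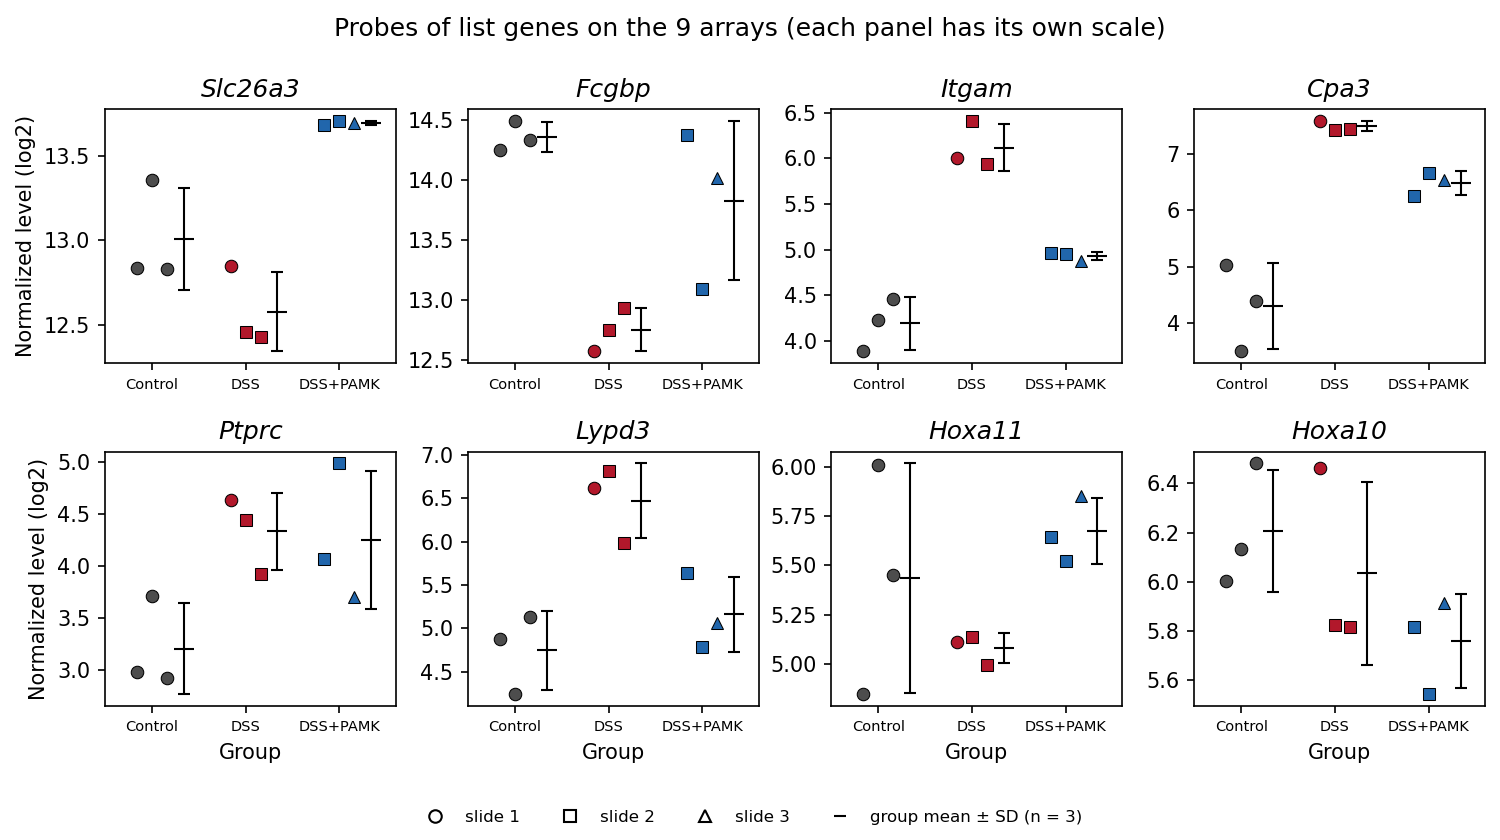
Normalized log2 intensity of 8 list genes on each array, by group, with the marker shape giving the slide and the bars the group mean ± SD (n = 3). Control replicate 2 was the highest Control array for Slc26a3, Hoxa11, Fcgbp and Ptprc, as for Aoc1. Itgam, Cpa3 and Lypd3 were highest on the DSS arrays.

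Slc26a3, Fcgbp, Itgam, Cpa3 and Lypd3 were named from the published lists of probes chosen on these arrays, so that they moved is part of the choice, and neither their calls nor their p-values are independent evidence. Of 10 goblet cell markers 1 was linked, Fcgbp, which encodes a protein of mucus. Its level was 14.25, 14.50 and 14.33 in Control, 12.57, 12.75 and 12.93 in DSS and 14.38, 13.09 and 14.02 in DSS+PAMK mice. Fcgbp fell in the DSS group, with a difference of −1.61 (SE 0.30, limma adjusted p = 0.0889) and rose from the DSS to the DSS+PAMK group by 1.08 (SE 0.30, limma adjusted p = 0.660). The latter call was lost under the 75th percentile shift (0.99), with slide as a block (0.89), in the methods' t-test and without DSS replicate 1 (0.99), DSS+PAMK replicate 1 (0.80) or DSS+PAMK replicate 3 (0.98). Its r with Scnn1b was −0.94 over the 9 arrays (rho −0.95), since it was low where Scnn1b was high, and −0.76 after the group means were taken out.

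Of 18 leukocyte markers 4 were linked, and 2 of them, Itgam and Cpa3, were called higher in the DSS than in the Control group. Of all tested probes 3.06% were called. The fit also called Ptprc, which is not counted here because it was well above background on only 2 of 3 Control arrays. Both Itgam and Cpa3 passed the adjustment. Without any 1 of the Control arrays, without DSS replicate 2 or in the methods' t-test, 0 probes did. From DSS to DSS+PAMK 2 of the 4 were called lower (1.7% of all tested probes were called). In DSS+PAMK against Control, Cpa3 was called higher (2.67% of all were called), and the call of Ptprc is again not counted. Itgam was also above Control in the DSS+PAMK group, by 0.74 and without overlap, but was not called. The median log2 difference of the 4 genes was 1.53, −0.65 and 0.90 in these comparisons, beside −0.04, 0.02 and −0.01 over all tested probes. Both medians against Control rest in part on the differences of Ptprc, which are inexact. Itgam, an integrin of myeloid cells, was at 3.88, 4.23 and 4.45 in Control, 6.00, 6.41 and 5.93 in DSS and 4.96, 4.96 and 4.88 in DSS+PAMK mice. It rose by 1.93 (SE 0.19, limma adjusted p = 0.0352) in the DSS group and fell again in the DSS+PAMK group, with a difference of −1.19 from DSS (SE 0.19, limma adjusted p = 0.643). Cpa3, a protease of mast cells, which are a main store of the histamine that Aoc1 degrades, was at 5.02, 3.50 and 4.38 in Control, 7.58, 7.43 and 7.44 in DSS and 6.25, 6.66 and 6.54 in DSS+PAMK mice. It rose by 3.18 (SE 0.34, limma adjusted p = 0.0352) in the DSS group and was still 2.18 (SE 0.34, limma adjusted p = 0.145, called at the thresholds) above Control in the DSS+PAMK group. Its fall from DSS to DSS+PAMK, −1.0 (SE 0.34, limma adjusted p = 0.666), lay at the threshold and was lost with slide as a block (−0.98) and without DSS replicate 1 (−0.95) or DSS+PAMK replicate 1 (−0.89). With normexp background correction the calls of Itgam were lost, at 0.73 and −0.52. Those of Cpa3 other than between the DSS and Control groups were also lost, at 0.87 and −0.69. The difference of Cpa3 between the DSS and Control groups was then 1.56. Normexp adds an offset to each intensity, which by construction makes log2 differences of dim probes smaller.

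The other two leukocyte genes were named through probes at the start of their RefSeq transcripts. Ptprc, the general leukocyte antigen CD45, was well above background on only 2 of 3 Control arrays. Its differences from Control, measured as 1.13 for DSS and 1.05 for DSS+PAMK, are therefore inexact and given without a test. The fit called both, and these calls are left out of the counts of leukocyte markers above. Both calls were lost under normexp and the 75th percentile shift, and without Control replicate 3 (0.99 and 0.91). The first was also lost without DSS replicate 1 (0.98), and the second in the methods' t-test and without Control replicate 1 (0.94) or DSS+PAMK replicate 2 (0.68). For Ms4a2, a subunit of the mast cell receptor for IgE, the 2 probes differed in their calls. The one at the transcript start had the higher mean over all 9 arrays and represented the gene. In the DSS and DSS+PAMK means it was the lower one (4.47 against 5.28 and 4.17 against 4.73). It differed by −0.20 between the DSS and Control groups and was not called. This difference was 0.42 with slide as a fixed block, 0.06 without DSS replicate 2 and −0.50 without DSS replicate 1, so its sign was not settled. Between the DSS+PAMK and Control groups it differed by −0.49, without overlap and not called, and by 0.36 with slide as a fixed block. The probe of the published lists was not well above background on any of the 3 Control arrays, and against these it was at least 4.74-fold higher with DSS and at least 3.25-fold higher with DSS+PAMK. These bounds set the Control arrays at the lowest signal that was well above background. The mean log2 level of the 4 leukocyte genes was 4.14, 4.05 and 4.08 on the Control arrays, 5.83, 5.56 and 5.42 on the DSS arrays and 4.88, 5.14 and 4.86 on the DSS+PAMK arrays. Over the 9 arrays, the r of Cpa3, Itgam, Ptprc and the Ms4a2 probe at the transcript start was −0.28, −0.28, 0.29 and −0.16 with Aoc1. With Scnn1b it was 0.83, 0.81, 0.52 and −0.07. After the group means were taken out it was −0.93, 0.24, 0.53 and 0.24 with Aoc1 and 0.65, −0.35, 0.05 and −0.03 with Scnn1b. The values with Aoc1 rest mostly on the 3 Control arrays, where its spread was widest. The share of leukocytes in each sample was not measured.

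Of 10 posterior Hox genes, whose levels vary with position along the gut, 2 were linked through transcript starts and neither was called. Hoxa11 was named only after its values were seen. The 2 genes differed in their likeness to Aoc1, so position along the colon could not be followed. Hoxa11 was at 4.85, 6.01 and 5.45 in Control, 5.11, 5.14 and 4.99 in DSS and 5.64, 5.52 and 5.86 in DSS+PAMK mice, with Control replicate 2 the highest and Control replicate 1 the lowest of all arrays, as for Aoc1 after normalization. Its r with Aoc1 was 0.897 (rho 0.90). It was 0.85 after the group means were taken out, which rests mostly on the Control arrays. Hoxa10 was at 6.00, 6.13 and 6.48 in Control, 6.46, 5.82 and 5.81 in DSS and 5.82, 5.54 and 5.91 in DSS+PAMK mice. The r of Hoxa10 with Aoc1 was −0.27 (rho −0.05), and 0.10 after the group means were taken out. The part of the site of sampling in the level of Aoc1 was not tested.

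Lypd3 was the 1 linked gene of 9 markers of stratified squamous epithelium, which lines the anal end of the gut. It was at 4.88, 4.24 and 5.13 in Control, 6.62, 6.81 and 5.99 in DSS and 5.64, 4.79 and 5.06 in DSS+PAMK mice. It rose by 1.72 (SE 0.32, limma adjusted p = 0.0909) in the DSS group and fell again in the DSS+PAMK group, with a difference of −1.31 from DSS (SE 0.32, limma adjusted p = 0.660), and both calls were lost with normexp, at 0.80 and −0.67. No gene was linked of the 12 markers of fibroblasts and smooth muscle, the 10 of endothelial, glial and neuronal cells or the 8 of pancreatic acinar cells.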

How the data were processed

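Colonic RNA of 9 samples was labeled with Cy3 and hybridized to 1-color Agilent arrays. Per the file headers, the authors deposited the intensity of each spot on a linear scale, corrected for background by Agilent Feature Extraction 10.7.1.1 and not yet normalized between arrays. From this deposited intensity, log2 values were computed, control spots and outlier spots (318 to 430 per array) were left out, and the values were quantile normalized over the 9 arrays as in the methods. Spots of a probe were averaged.

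The test covered 99612 of 166924 probes, those well above background on all arrays of 1 or more groups. Group means were fitted to the 9 arrays with limma 3.58.1 in R 4.3.3 (6 residual and 2.50 prior degrees of freedom), and p-values were adjusted by Benjamini-Hochberg over all tested probes. Calls required a 2-fold change or more with an unadjusted p no higher than 0.05, the thresholds of the methods. The procedure was tested on simulated data. The random block used statmod 1.5.0. With 3 arrays per group, the number of arrays limits the precision.

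Symbols of 183 probes came from the published lists (176 symbols, 175 of them among the Ensembl gene names used). For list genes without such a probe, a step added after the intensities had been seen matched probes to the start of RefSeq transcripts (GRCm38.p6), with at least 30 equal bases, and linked 298 probes to 1 symbol each. A gene with several probes was represented by the one with the highest mean over all arrays. Some genes of the lists are not reported here and are left out of the counts of list genes. Genes were named by a rule, namely linked genes of the ENaC and amine lists, called genes and the brightest gene of each other list, and the 5 named genes most like each of Aoc1 and Scnn1b. Hoxa11 was named outside the rule, after its values were seen. The genes and the lists were chosen with earlier results of these data known. Alternatives were the 75th percentile shift, normexp (offset 50), other filters on dim probes, a fit of only 2 groups and the methods' t-test. Others were slide or replicate number as a block, the median over the tested probes of a gene, names from the published lists only (added later) and each array left out.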

Additional observations from a re-analysis of the deposited data

How the results depend on the processing

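The direction of the 6 differences of Aoc1 and Scnn1b held under the 75th percentile shift, normexp and slide as a block, and that of the 4 that could be formed within slides held there. With 1 array left out, Aoc1 between the DSS and Control groups ranged from −0.73 to 0.13. It turned sign without Control replicate 2, the highest array for Aoc1 after normalization. The cause of the high level on that array was not tested. The ranges of the other differences were 0.97 to 1.17 (Aoc1, DSS+PAMK against DSS), 0.36 to 1.22 (Aoc1, DSS+PAMK against Control), 1.20 to 1.49 (Scnn1b, DSS against Control), −1.25 to −0.70 (Scnn1b, DSS+PAMK against DSS) and 0.11 to 0.66 (Scnn1b, DSS+PAMK against Control). The weakest Scnn1b signal was 12.7 times its background.

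Numbers of called probes moved more, and which probes they were was not compared. For DSS against Control, DSS+PAMK against DSS and DSS+PAMK against Control they were 3045, 1698 and 2663. They became 5472, 4462 and 5004 with no filter on dim probes, 1530, 693 and 1357 with only probes well above background on all arrays, 615, 338 and 344 with normexp, and 1907, 1019 and 1619 in the methods' t-test. The number past the adjustment for DSS against Control, 175, became 0 with no filter on dim probes, with only these 2 groups fitted and with the replicate block, 121 under the 75th percentile shift, 468 with only probes well above background on all arrays and 465 with slide as a fixed block. The 2 filters tested more or fewer probes by construction, and the cause of the other shifts was not tested. Slide as a fixed block gave 9868 for DSS against Control and 10652 for DSS+PAMK against Control, groups that it links through few arrays, and the 75th percentile shift gave 5032 for the latter. With 1 array left out the numbers ranged from 2708 to 4145, from 1385 to 3052 (highest without DSS replicate 2) and from 1611 (without Control replicate 1) to 5349 (without Control replicate 2).

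Of 9 linked list genes other than Aoc1 and Scnn1b, 5, 5 and 2 were called in these comparisons. These counts include Ptprc in both comparisons with Control, although its calls were left out of the counts of leukocyte markers. Normexp left 2, 2 and 0. In DSS+PAMK against Control, the 75th percentile shift, the methods' t-test and the filter on all arrays each left 1. In the same comparison 3 were called with slide as a fixed block or with the median over the tested probes of a gene. For DSS+PAMK against DSS, slide as a fixed block left 3. With 1 array left out, 4 to 5, 3 to 5 (3 without DSS replicate 1 or DSS+PAMK replicate 1) and 1 to 2 (1 without Control replicate 1 or 3 or DSS+PAMK replicate 2) were called. With names from the published lists only, an alternative chosen after seeing the data, 6 genes were linked and 5, 5 and 2 called, with Ms4a2 in place of Ptprc in both comparisons with Control. Those lists hold called probes, so a share above the 3.06%, 1.7% and 2.67% called over all probes is expected from the choice.

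The replicate numbers did not pair the samples. Deviations of arrays with the same number had correlations of −0.20 to 0.09 over 9 pairs, and an array was most like its own number in 2 of 18 cases. With the replicate number as a block, 2951, 1701 and 2704 probes were called, within 1.5 times of the numbers above, and the differences of Aoc1 (−0.38, 1.08 and 0.70) and Scnn1b (1.36, −1.02 and 0.34) were equal by construction.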
